A study of Mus musculus with 6 samples.

Results

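C2C12 cells were given a short hairpin RNA directed at Rp58. The stable hairpin line (shRp58) is set here beside a stable line with a control vector, both taken at day 0 of differentiation. C2C12 is a mouse myoblast line that divides in rich medium, leaves the cell cycle when serum is lowered and fuses into multinucleated muscle fibres. The comparison is 1 array against 1 array, 2 of the 6 arrays of the series, and its members are the genes read on both. Of 18194 genes with a probe set of their own, 13242 were kept because they reached 7.95 log2 units, the median of all values, on at least 1 of the 6 arrays. Of these, 9718 reached that value on at least 1 of the 2 arrays compared here, and 3524 lay below it on both and are dim. That value pools arrays of 2 scales, and dim is used here only for a value below it, not for a gene that is off. Where 1 or both of the 2 values are dim the size of a difference or fold is not exact, which holds for 102 of the 298 genes at least 1.5-fold lower and 48 of the 189 at least 1.5-fold higher. Every difference below is the log2 value with shRp58 minus the log2 value with the control vector. With 1 array on each side no replicate error exists, no test was run, and every value is a description of these arrays.

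Both lines are stable transfectants made by lipofection and kept in G418 at 500 ug per ml for 2 weeks. For the control line the labels give a LacZ vector and also a control hairpin. The labels do not state whether either line was a pool or a single clone, so the hairpin and a difference between clones cannot be told apart. Day 0 means confluent cells just after the change from growth medium with 10% fetal bovine serum to differentiation medium with 2% horse serum. The other 4 arrays are untransfected (parental) C2C12 cells, taken in growth medium (GM) and on days 0, 2 and 4. They are used for comparison.

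Rp58, whose gene is now named Zbtb18, joins a BTB domain to zinc fingers and represses transcription. In myoblasts the transcription factor MyoD pairs with E proteins on E-box sites and, with MEF2 factors, switches on the genes of the contractile apparatus. Id proteins bind E proteins without binding DNA and so hold MyoD back, and Rp58 is known as a repressor of the genes Id2 and Id3. Cells that differentiate also shut down the genes of DNA replication and mitosis, many of which are controlled through E2F sites and through a promoter element called CHR with its partner, the CCAAT box.

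Zbtb18, the target of the hairpin, was read by 1 probe set at 11.69 in the control line and 11.16 in the shRp58 line. The difference was -0.53, or 1.44-fold lower, under 1.5-fold. It has the sign that the hairpin label calls for, but lies within the central 95% of all kept genes, which ran from -0.55 to 0.46. Parental cells read 11.18 in GM and then 11.88, 12.86 and 13.06 on days 0, 2 and 4, so Zbtb18 was higher at each later time. Among 41 kept genes of the BTB zinc finger family the median difference was -0.09, and Zbtb18 was second lowest after Bcl6, a repressor of germinal centre B cells, at -0.86. No other member of this family was past 1.5-fold, with Zbtb11 next at -0.47 and Zbtb10 highest at 0.26. Zbtb18 itself has 5 promoter windows in the RefSeq table of the GRCm38.p6 assembly. The window furthest upstream holds the letters ACATCTG, the core that Rp58 is known to bind. Matches in the other windows of Zbtb18 were not listed. This window is shown here because it is the target gene's own promoter. The stretch lies at chr1:177442201-177442250 on the plus strand, 150 to 101 bases before the transcript start, with the core in capitals:
Zbtb18: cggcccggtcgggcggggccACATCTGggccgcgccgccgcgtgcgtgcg

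Over all kept genes the 2 arrays were close to each other. The median difference was -0.01, the robust standard deviation (the scaled median absolute deviation) was 0.17, and 80.3% of genes lay within 0.25 of 0. This spread was similar at every level, from 0.16 in the brightest of 5 equal groups of genes to 0.18 in the second dimmest. Genes at least 2-fold lower with shRp58 numbered 82 (0.619% of kept genes), and genes at least 2-fold higher numbered 7 (0.0529%). At 1.5-fold the counts were 298 lower (2.25%) and 189 higher (1.43%). The larger differences were therefore mostly on the low side, and the smaller ones more evenly divided. Myoblast identity was clear on both arrays: Myod1, Myf5 and desmin (Des) were read at 12.22, 9.95 and 13.14 with the control vector and at 12.09, 9.87 and 12.87 with shRp58. Pax7, which marks quiescent muscle stem cells, was dim at 7.29 and 7.20. Reference genes had a median of -0.04 over 10 genes, and 17 ribosomal protein genes lay between -0.05 (Rps18) and 0.16 (Rpsa).

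**Figure D1:**
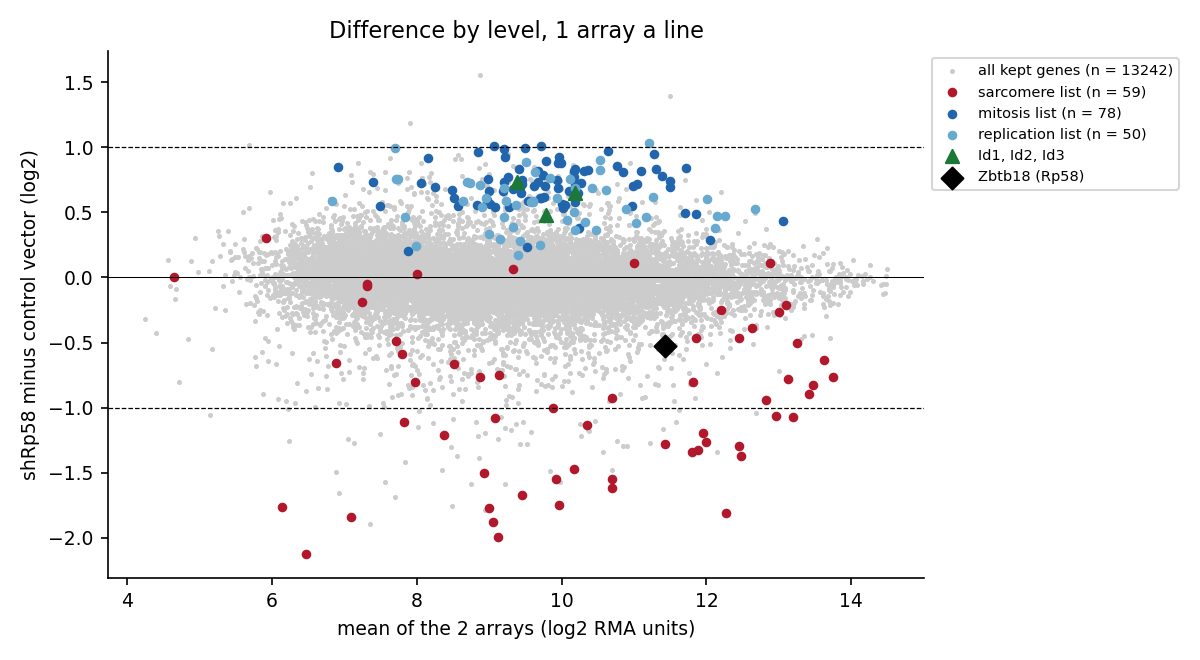
Each point is 1 kept gene, placed by the mean of its 2 array values (x axis, log2 RMA units) and by the shRp58 minus control vector difference (y axis, log2). Red points are sarcomere genes, dark and light blue points are mitosis and replication genes, green triangles are Id1, Id2 and Id3, the black diamond is Zbtb18, and dashed lines mark 2-fold. Of 59 sarcomere genes 53 lie below 0, and the lowest, Myh8 at -2.12, is below 7.95 on both arrays. Mitosis and replication genes form a band above 0 with few members past the upper line.

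The Id genes were higher with the hairpin. Id2 was read at 9.02 (control) and 9.75 (shRp58), a difference of 0.74. Id3 stood at 9.86 for the control and 10.51 for the hairpin, a difference of 0.65. For Id1 the values were 9.55 in the control line and 10.03 in the shRp58 line, a difference of 0.48, which did not reach 1.5-fold, while Id2 and Id3 did. Id4 was below 7.95 on every array. In the parental cells the 3 genes were high in growth medium and at day 0 and lower by day 2: Id2 went from 10.91 at day 0 to 9.44 at day 2, Id3 from 11.89 to 9.20 and Id1 from 11.40 to 9.85. Relative to the median of all kept genes, all 3 were below parental day 0 in both lines. The control line was the further away, by -0.83 (Id1), -0.87 (Id2) and -1.01 (Id3), against -0.35, -0.14 and -0.36 in the shRp58 line. Such values cross between arrays of different scale, as is set out further on.

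The partners of MyoD differed from one another. The E protein gene Tcf4 was read at 10.78 (control) and 10.13 (shRp58) (-0.65), and Tcf12 at 11.37 for the control and 11.06 for the hairpin (-0.31). Tcf3, whose products E12 and E47 are the classical partners of MyoD, went the other way, at 10.67 in the control line and 10.86 in the shRp58 line (0.19). None of 8 other kept genes that modulate helix-loop-helix factors was past 1.5-fold. They ran from -0.49 for Hes6 to 0.41 for Twist2, a repressor of MyoD activity. The promoter windows of Id2 and Id3 are shown because these genes are known targets of Rp58. Neither holds ACATCTG on either strand in the 250 bases before and 50 bases after the start, which says nothing about sites elsewhere or about binding. Id2 is given from chr12:25096153-25096292 (minus strand) and Id3 from chr4:136143742-136143791 (plus strand). Capitals mark an E-box CAGCTG and CCAAT boxes in Id2 (CCAAT, or ATTGG where it lies on the other strand) and a CHR element TTTGAA in Id3:
Id2: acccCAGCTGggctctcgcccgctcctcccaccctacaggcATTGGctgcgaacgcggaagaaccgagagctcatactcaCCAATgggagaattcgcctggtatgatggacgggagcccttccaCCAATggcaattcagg
Id3: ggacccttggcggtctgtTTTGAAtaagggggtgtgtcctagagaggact

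The genes that switch on muscle fell into those that differed past 1.5-fold and those that did not. Myog (myogenin), which drives terminal differentiation, was read at 13.35 (control) and 12.64 (shRp58), a difference of -0.72. Myod1 itself stood at 12.22 for the control and 12.09 for the hairpin, a difference of -0.13, and Myf5, the other determination factor, differed by -0.07. Myf6, a later member of the family, was dim on both arrays and differed by 0.11. Among 21 kept genes of the MEF2 and homeobox factors and their cofactors the median was -0.23, with 16 below 0 and 5 above, and 4 were past 1.5-fold, each of them lower. Mef2c, a MyoD partner on muscle promoters, was at 9.80 in the control line and 8.64 in the shRp58 line, a 2.24-fold difference. Mef2a and Mef2d differed by -0.45 and -0.36. The cofactors Vgll3 of the TEAD factors and Eya4 of homeobox factors were at -0.75 and -0.75, and the muscle methyltransferase gene Smyd1 at -0.70. The highest of these 21 was the homeobox cofactor Eya3, at 0.23.

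Sarcomere genes made up 28 of the 82 genes that were at least 2-fold lower, more than any other list. Of 59 kept members 42 were at least 1.5-fold lower and 0 were 1.5-fold higher, with a median of -0.93 against -0.01 for all kept genes. The 6 muscle lists together (sarcomere, calcium handling, fusion, neuromuscular junction, dystrophin complex and myogenic regulators) held 42 of those 82 genes, and 24 of the 82 were in no list. In that order the 6 lists hold 59, 21, 22, 10, 9 and 25 of the 13242 kept genes, and 885 kept genes are in any list. In RNA from whole cultures, fewer differentiating cells and less RNA in each such cell cannot be told apart.

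Thick filament and M-band genes stood lowest as a role, with a median of -1.28 over 18 genes and 11 of them at least 2-fold lower. Myh7, the slow and cardiac myosin heavy chain, was read at 10.12 (control) and 8.12 (shRp58), 4.00-fold lower. The slow regulatory light chain Myl2 went from 8.01 to 6.17, so its value with shRp58 is dim and the size of its difference of -1.84 is not exact. Myl4, the embryonic and atrial light chain, was bright at 13.17 for the control and 11.36 for the hairpin, but its other probe set differed by -0.02 and the median of both was -0.91. Embryonic myosin (Myh3) went from 13.09 to 11.79 (-1.30) and the fast IIx myosin (Myh1) from 11.50 to 9.88 (-1.62). Perinatal Myh8 (-2.12) and fast IIb Myh4 (-1.76) were below 7.95 on both arrays. Adult and developmental myosin heavy chain genes are related in sequence, and their probes may read one another. This was not tested, so their values are not taken as independent. The M-band genes Myom1 and Myom2 were at -1.50 and -1.27, where other probe sets of Myom2 ran from -1.30 to 0.08. Smaller differences were found for the fast light chains Mylpf (13.88 to 13.06, -0.82) and Myl1 (13.94 to 13.31, -0.63).

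In the thin filament the median was -1.002 over 18 genes, 9 of them 2-fold lower. The leiomodins Lmod2 and Lmod3, which start actin filaments, stood lowest: Lmod2 was at 9.88 in the control line and 8.11 in the shRp58 line (-1.77) and Lmod3 at 10.70 (control) and 9.15 (shRp58) (-1.55). Nebulin (Neb), the giant protein along the actin filament, was at 11.47 for the control and 9.93 for the hairpin (-1.55). Troponins, the calcium switch of the filament, were lower in all 7 kept forms, from -1.34 for the fast Tnnt3 to -0.89 for the slow and cardiac Tnnc1. Skeletal actin (Acta1) and cardiac actin (Actc1) were at -0.76 and -0.78 on bright probe sets of 14.14 and 13.52 with the control vector. Tropomyosins differed by member, with Tpm1 at -0.50, Tpm2 at -0.39 and Tpm3, which is also made outside muscle, at 0.11.

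Z-disc and titin genes had a median of -0.77 over 23 genes, with 8 at least 2-fold lower. The muscle LIM protein gene Csrp3 was read at 10.00 in the control line and 8.12 in the shRp58 line, 3.68-fold lower. The stretch-responsive Ankrd2 went from 10.85 to 9.10 (-1.75), whereas its relative Ankrd1 was almost equal, at 13.20 and 12.99 (-0.21). Myoz2, which ties alpha-actinin to calcineurin, was at 10.29 (control) and 8.62 (shRp58) (-1.67). Smpx, a small muscle protein, was at -1.48, titin (Ttn) at -1.20 and the nebulin-stabilising Klhl41 at -1.13. Ldb3, at -1.01, lay just inside the 2-fold threshold. Desmin (Des) and the Z-disc scaffold gene Pdlim5 differed by -0.27 and 0.11.

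Promoters of 4 of the lower muscle genes are shown, each holding a MEF2 site. Of 58 promoter windows of sarcomere genes, 11 (18.97%) held a MEF2 site, against 1.875% of the 13599 windows of kept genes and 3.187% of all 32851 windows of the same length. The E-box CAGCTG, the form preferred by MyoD, was in 22 of the 58 (37.93%), against 15.80% and 16.30%. For the E-box CACCTG the shares were 34.48%, 18.37% and 20.21%. Both strands were searched, and a match is a run of letters, not a shown binding site. Capitals mark the MEF2 site (10 bases) and any CAGCTG. In Myoz2 (chr3:123034988-123035047, minus strand) both lie within the last 33 bases before the start, and Klhl41 (chr2:69669980-69670079, plus strand) and Myh4 (chr11:67237622-67237761, plus strand) also hold both. Casq2, the calcium store gene described next (chr3:102086325-102086374, plus strand), has the MEF2 site 69 to 60 bases before the start:
Myoz2: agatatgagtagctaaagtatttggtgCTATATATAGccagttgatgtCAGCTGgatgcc
Klhl41: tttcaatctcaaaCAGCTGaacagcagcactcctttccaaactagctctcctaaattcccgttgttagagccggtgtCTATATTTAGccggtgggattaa
Myh4: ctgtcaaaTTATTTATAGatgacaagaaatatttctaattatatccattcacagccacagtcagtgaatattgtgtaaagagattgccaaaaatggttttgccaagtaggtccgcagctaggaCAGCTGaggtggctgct
Casq2: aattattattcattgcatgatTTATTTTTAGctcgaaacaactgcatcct

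Among 21 kept genes that couple excitation to contraction 10 were at least 1.5-fold lower, 0 were higher and 5 lay above 0. The pore subunit of the voltage sensor, Cacna1s, was read at 9.36 for the control and 7.61 for the hairpin (-1.76), with the hairpin value dim. The release channel Ryr1 went from 11.49 to 10.20 (-1.29), triadin (Trdn) from 9.88 to 8.92 (-0.97) and junctophilin Jph2 from 11.69 to 10.87 (-0.82). Jph1 and Ryr3, of the same families, differed by -0.12 and 0.13, and the muscle chloride channel Clcn1 was highest at 0.16. Over the 12 kept genes of the sensor and channel the median was -0.56. In the calcium store, 5 of 9 kept genes were past 1.5-fold lower: Casq2 at -1.34, Hrc at -1.29, sarcalumenin (Srl) at -1.17, the fast pump Atp2a1 at -1.11 and Casq1 at -0.91. The pump regulators Pln and Sln were below 7.95 on both arrays, with Sln the highest of the store genes at 0.10.

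Of 22 kept fusion genes 7 were at least 1.5-fold lower and 0 higher. The fusogens myomaker (Mymk) and myomixer (Mymx), which join myoblast membranes, were at 13.20 in the control line and 12.16 in the shRp58 line (-1.04) and at 11.24 (control) and 9.91 (shRp58) (-1.34). Tmem182, a muscle membrane protein, was at -1.48, caveolin 3 (Cav3) at -1.21 and the membrane repair protein dysferlin (Dysf) at -0.87. Adhesion molecules differed by member: the neural cell adhesion molecule Ncam1 was at -0.69 and N-cadherin (Cdh2) at -0.57, and M-cadherin (Cdh15) at -0.13. The tetraspanins Cd9 and Cd81 were at 0.03 and -0.11. Of the 8 kept genes of actin remodelling in fusion, Itgb1bp2 (melusin), a muscle protein that binds integrin, was at -1.49, and the other 7 lay between -0.14 (Nfatc2) and 0.23 (Nckap1l). At the neuromuscular junction the fetal acetylcholine receptor subunit Chrng was read at 12.14 for the control and 11.12 for the hairpin (-1.02) and the agrin receptor Lrp4 at 9.05 in the control line and 7.96 in the shRp58 line (-1.09). All 10 kept junction genes lay below 0, 8 of them within 1.5-fold, among them Chrna1 (-0.19) and Musk (-0.31). In the dystrophin complex Sntb1 (-0.84) and Sgca (-0.67) were past 1.5-fold among 9 kept genes, with dystroglycan (Dag1) at -0.54.

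**Figure D2:**
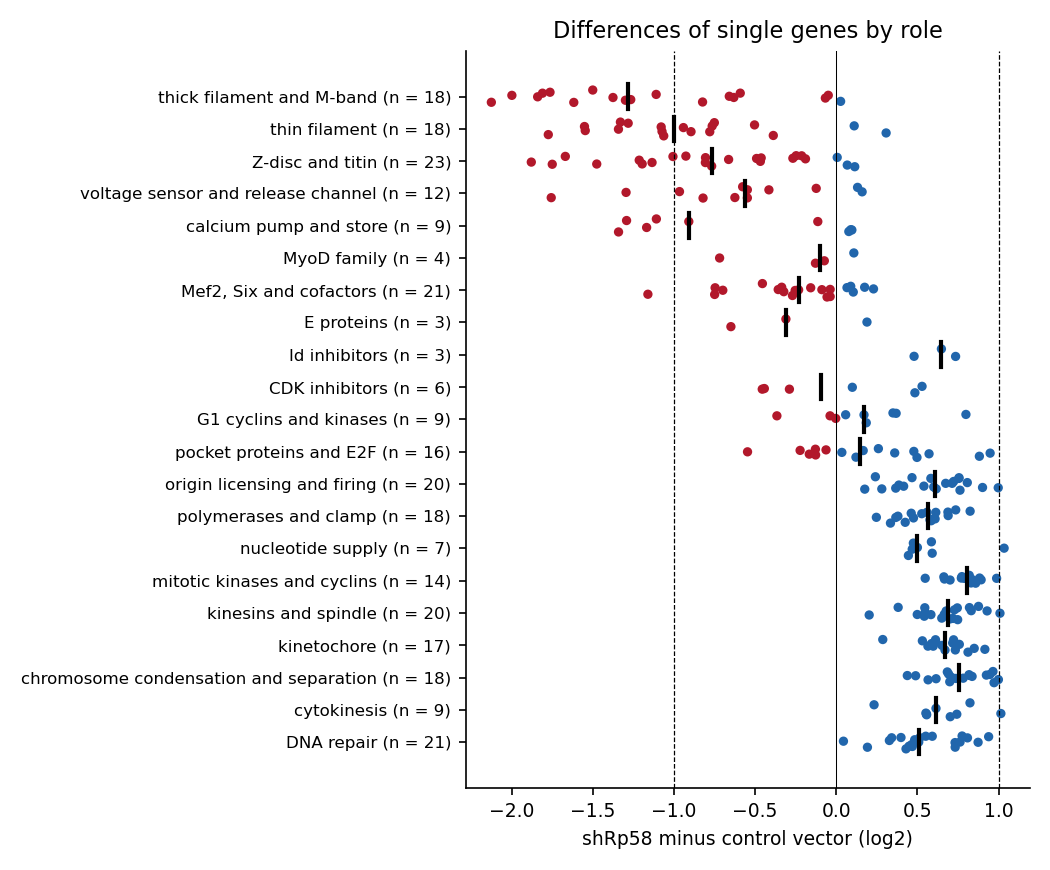
Each point is 1 kept gene, grouped by role on the y axis and placed by its shRp58 minus control vector difference (x axis, log2), red below 0 and blue above. Black bars are medians and dashed lines mark 2-fold. Medians run from -1.28 for the thick filament to 0.80 for mitotic kinases and cyclins, with MyoD family, CDK inhibitor and G1 genes near 0.

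Of 51 kept genes of oxidative phosphorylation 2 were past 1.5-fold, both lower. Over all kept genes 2.25% were at least 1.5-fold lower and 1.43% higher, so 2 of 51 is not far from the general share. Of 45 genes of energy metabolism 8 were at least 1.5-fold lower and 1 higher. A muscle form and a widely expressed relative were set side by side for 15 pairs of genes of energy supply, contraction and the membrane, which were drawn up after the values had been seen, so the pairs are examples and support no general statement. Cytochrome oxidase shows the contrast within 1 complex: the muscle subunits Cox6a2 and Cox8b stood at 10.07 (control) and 8.79 (shRp58) (-1.28) and at 9.46 for the control and 8.24 for the hairpin (-1.22), while their widely expressed counterparts Cox6a1 and Cox8a differed by -0.07 and -0.02. No other kept gene of oxidative phosphorylation was past 1.5-fold, and the medians of complex I, complexes II and III and the ATP synthase were -0.05, 0.03 and -0.01. In glycolysis Pgam2 was at -1.24 and Pfkm at -0.68, beside Pgam1 at 0.25 and Pfkl at 0.19. Muscle creatine kinase (Ckm) was read at 11.86 in the control line and 10.59 in the shRp58 line (-1.27) and brain creatine kinase (Ckb) at 11.78 (control) and 11.66 (shRp58) (-0.12). Of the glucose transporters, the widely expressed Slc2a1 was higher (0.69) and the insulin-responsive Slc2a4 equal (-0.01). In 1 pair both forms were close to equal in the lines, with dim Cox7a1 and bright Cox7a2 at -0.05 and -0.04.

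Among genes of glycogen and creatine 2 of 11 were at least 1.5-fold lower, around a median of -0.26, and among those of fatty acid handling and oxygen storage 4 of 15, around -0.15. None of either group was 1.5-fold higher. Glycogen phosphorylase (Pygm) was at 9.55 for the control and 7.96 for the hairpin (-1.59) and myoglobin (Mb), which holds oxygen, at 10.77 in the control line and 9.19 in the shRp58 line (-1.57), where the median over the probe sets of Mb was -0.84. Heart-type fatty acid binding protein (Fabp3) was at 8.55 (control) and 7.13 (shRp58) (-1.42, the hairpin value dim), or -0.70 as a median over its probe sets, whereas Fabp5 differed by 0.54. The fatty acid transporter Cd36 (-1.50) was below 7.95 on both arrays and lipoprotein lipase (Lpl) at -0.82. Of 25 ubiquitin ligase and chaperone genes 4 were at least 1.5-fold lower: the muscle-restricted Trim63 (MuRF1) was at -1.37, Trim54 at -0.83, the myosin chaperone Unc45b at -1.48 (the hairpin value dim) and the small heat shock protein Hspb7 at -0.90. The general chaperones Hspa8 and Hsp90aa1 were at -0.05 and 0.04.

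**Figure D3:**
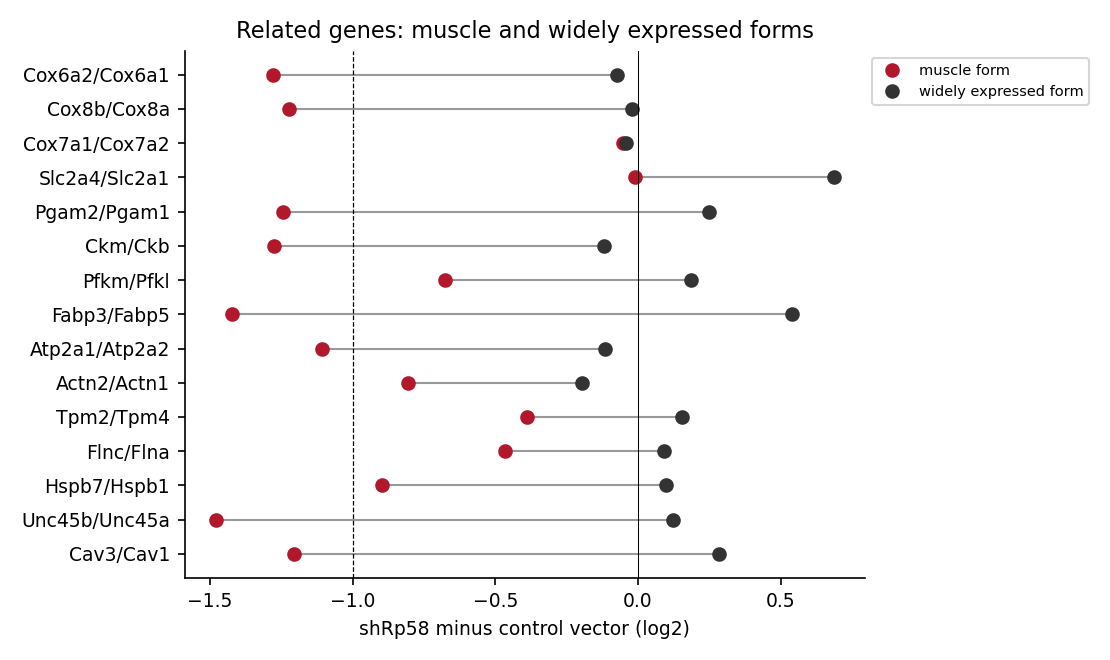
For each of 15 pairs (y axis) the shRp58 minus control vector difference (x axis, log2) of the muscle form (red) and of the widely expressed form (black) is joined by a line, and the dashed line marks 2-fold lower. Red points lie left of black ones in every pair, from a wide gap for Fabp3 and Fabp5 (-1.42 and 0.54) to almost none for Cox7a1 and Cox7a2.

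On the high side the differences were smaller and shared by nearly whole lists. The 4 cell cycle lists (replication, mitosis, DNA repair, and G1 control with cell cycle exit) held 95 of the 189 genes at least 1.5-fold higher. In that order they hold 50, 78, 21 and 31 of the 13242 kept genes. All 78 kept mitosis genes lay above 0, and 60 of them were past 1.5-fold, with a median of 0.72. All 50 kept replication genes lay above 0 too, 24 of them past 1.5-fold, with a median of 0.58. For DNA repair it was 21 of 21 above 0 and 8 past 1.5-fold, with a median of 0.51. By comparison 47.5% of all kept genes lay above 0.

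Within replication, origin licensing and firing had 11 of 20 genes past 1.5-fold. Cdc6, which loads the helicase at origins, was at 7.21 for the control and 8.20 for the hairpin (0.998, the control value dim), and the helicase subunit Mcm5 at 10.08 in the control line and 10.98 in the shRp58 line (0.90). Mcm3 and Mcm2, subunits of the same helicase, differed by 0.37 and 0.42. Of 18 genes of polymerases and the sliding clamp 7 were past 1.5-fold, from 0.25 (Pold3) to 0.82 (Prim1, a primase), with the clamp Pcna at 0.53. Thymidine kinase (Tk1), which salvages thymidine for DNA synthesis, stood highest at 10.69 (control) and 11.72 (shRp58), 2.05-fold higher, while both ribonucleotide reductase genes, Rrm1 and Rrm2, differed by 0.47 and 0.47. Uhrf1, which guides maintenance methylation behind the fork, was at 0.89 and its partner Dnmt1 at 0.53.

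Mitotic kinases and cyclins had the narrowest range of the 5 mitosis roles, with 13 of 14 past 1.5-fold, from 0.55 (Ccnb2) to 0.99 (Melk). The master kinase Cdk1 was read at 11.29 for the control and 12.13 for the hairpin (0.84), its cyclin Ccna2 at 10.33 in the control line and 11.19 in the shRp58 line (0.86) and the spindle kinase Aurkb at 9.35 (control) and 10.24 (shRp58) (0.89). Aurka stood at 0.88 on its brightest probe set but at 0.41 as a median of its probe sets. Among kinesins and spindle genes 13 of 20 were past 1.5-fold, led by the spindle motor Kif11 at 8.57 for the control and 9.58 for the hairpin, 2.01-fold higher. Kinetochore genes had 14 of 17 past 1.5-fold, with Ska1 at 0.92 and the checkpoint gene Bub3 lowest at 0.29. In chromosome condensation and separation it was 15 of 18: the cohesin protector Cdca5 was at 8.99 in the control line and 9.99 in the shRp58 line (0.999), the condensin subunit Smc2 at 0.97 and topoisomerase Top2a at 10.81 (control) and 11.75 (shRp58) (0.95). Medians over all probe sets were 0.40 for Smc2 and 0.42 for Top2a, so both lose 1.5-fold by that measure. For cytokinesis 5 of 9 were past 1.5-fold, with Shcbp1 at 1.01. The proliferation marker Mki67, in no list, was at 10.42 for the control and 11.25 for the hairpin (0.83).

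Promoters of 4 mitosis genes are shown for the CHR element TTTGAA and the CCAAT box. Of 73 windows of mitosis genes 51 (69.86%) held TTTGAA on either strand, against 12.48% of windows of kept genes and 17.89% of all windows, and 52 (71.23%) held CCAAT, against 37.36% and 37.41%. Capitals mark these letters (TTCAAA and ATTGG where they lie on the other strand). Kif11 is given from chr19:37376322-37376381 (plus), Cdca5 from chr19:6085037-6085096 (plus), Top2a from chr11:99024190-99024294 (minus) and Cdk1 from chr10:69352913-69353002 (minus), each ending at the base before the start:
Kif11: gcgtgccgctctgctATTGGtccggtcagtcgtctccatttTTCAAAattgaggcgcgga
Cdca5: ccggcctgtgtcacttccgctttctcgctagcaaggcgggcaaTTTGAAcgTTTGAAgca
Top2a: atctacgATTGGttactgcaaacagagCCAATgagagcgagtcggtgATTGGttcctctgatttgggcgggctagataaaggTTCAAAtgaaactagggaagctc
Cdk1: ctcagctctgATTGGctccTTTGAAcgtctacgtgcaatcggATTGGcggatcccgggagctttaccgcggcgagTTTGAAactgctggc

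Replication genes carried the E2F site, written TTTNNCGC with each N a C or a G, in 17 of 52 windows (32.69%), against 3.625% of windows of kept genes and 2.265% of all windows. The CHR share was 21.15% there and the E2F share 8.219% in mitosis windows, so the motifs were spread unequally between the lists. Among all genes at least 1.5-fold higher, 40.12% of windows held CHR and 14.97% the E2F site. Among those at least 1.5-fold lower, 8.163% held the MEF2 site. The core ACATCTG was in 3.061% of windows of the lower genes and 2.395% of the higher ones, near the 2.853% of all kept genes. Promoters of 2 genes are shown for the E2F site, in capitals on the opposite strand: Cdc6 at chr11:98907991-98908040 and E2f7, a repressor of the E2F family, at chr10:110745219-110745268, both on the plus strand:
Cdc6: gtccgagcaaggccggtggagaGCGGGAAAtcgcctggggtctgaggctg
E2f7: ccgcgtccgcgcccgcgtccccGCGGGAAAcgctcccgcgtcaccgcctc

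The genes that govern entry to and exit from the cycle differed far less than those that carry it out. Their list holds 31 kept genes, of which 3 passed 1.5-fold, each on the high side. Of 6 kept CDK inhibitors none was past 1.5-fold. Cdkn1a (p21), which MyoD induces as cells leave the cycle, was at 13.68 in the control line and 13.24 in the shRp58 line (-0.44), and Cdkn1b (p27) at 11.05 (control) and 10.60 (shRp58) (-0.46). Cyclin D1 (Ccnd1) and D3 (Ccnd3) went opposite ways by 0.37 and -0.37, and Cdk4 and Cdk6 differed by 0.17 and 0.06. Ccne2 was higher by 0.80 but dim on both arrays. In the pocket protein and E2F role, E2f7 was at 8.79 for the control and 9.74 for the hairpin (0.95) and the activator E2f1 at 0.17, and Mybl2 (0.88) was dim. The retinoblastoma gene Rb1 was at 11.33 in the control line and 10.78 in the shRp58 line (-0.55), and its relative Rbl1, which cycling cells make, at 0.57.

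Secreted factors included some of the largest differences, but most genes of their lists were within 1.5-fold. Of 20 kept chemokine and secreted factor genes 6 were at least 1.5-fold lower and 0 higher. Their median was -0.20, and Cxcl16 was highest at 0.31. Of 15 IGF genes 2 were lower and 0 higher, around a median of -0.14. Among 28 TGF-beta and BMP genes it was 3 lower and 0 higher, around -0.17. Follistatin (Fst), which binds activins and myostatin and favours muscle growth, was read at 9.83 (control) and 8.04 (shRp58), 3.45-fold lower. Its median over the probe sets was -1.46. The receptors and Smads of this pathway were all within 1.5-fold, from -0.55 (Acvr2a) to 0.06 (Smad2). Igf2, an autocrine signal for differentiation, was at 10.95 for the control and 9.78 for the hairpin (-1.17), while its receptor Igf1r was at -0.34. Igfbp4, which binds IGFs, was at -0.71, with other probe sets from -1.38 to -0.08. Pleiotrophin (Ptn), a heparin-binding growth factor, was at 10.01 in the control line and 8.42 in the shRp58 line (-1.59, with -1.04 as a median of its probe sets). The metabolic hormone Fgf21 and the chemokine Cxcl12 were at -1.26 and -1.19. Tgfb3 and Tgfb2 differed by -0.70 and -0.61.

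Matrix genes leaned low, with 12 of 63 past 1.5-fold lower, 0 higher and a median of -0.13. Single members stood out from their families: Col1a1 was at 9.78 (control) and 8.86 (shRp58) (-0.92), yet Col1a2, whose chain joins it in type I collagen, differed by -0.09. Likewise Col6a2 and Col6a1 were at -0.83 and -0.59 and Col6a3 at -0.08. The small proteoglycans decorin (Dcn, -0.95) and biglycan (Bgn, -0.74), the CCN family member Ccn3 (-0.84) and the basement membrane protein Nid2 (-0.94) were lower. Col18a1 (0.58) and tenascin C (Tnc, 0.55) were the highest of the list and within 1.5-fold.

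Interferon-induced genes had a median of -0.46 over 18 genes, 7 of them past 1.5-fold lower. Ifi27l2a was read at 9.56 for the control and 8.17 for the hairpin (-1.39), Ifit1 at 8.61 in the control line and 7.68 in the shRp58 line (-0.94) and Usp18, which damps the interferon response, at 8.23 (control) and 7.33 (shRp58) (-0.90). Oasl2 was at -0.999, the gene nearest to 2-fold from the outer side. The shRp58 values of Ifit1, Usp18 and Oasl2 were dim, so the sizes of their differences are not exact. Of the 18 genes 3 were dim on both arrays. Ifit2 and Rsad2, of the same response, differed by 0.04 and -0.03. Antigen presentation genes lay within 1.5-fold, with a median of -0.21 over 7. Relative to all kept genes both transfected lines were above parental day 0 cells for the 25 genes of the 2 groups, by a median of 0.93 with the control vector and 0.58 with shRp58. These values cross between arrays of different scale, and on the same footing ribosomal protein genes stood at 0.41 and 0.43.

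Immediate-early genes leaned high, with 4 of 22 past 1.5-fold: Etv4 (0.76), Fos (8.58 for the control and 9.29 for the hairpin, 0.71), Fosl1 (0.67) and the ERK phosphatase Dusp6 (0.61). Egr1 and Jun differed by 0.14 and 0.02. For sterol and lipid synthesis 17 of 24 genes lay above 0, none past 1.5-fold, around a median of 0.19. Stress, oxidant defence and Notch genes had medians of -0.14, 0.04 and -0.10, and of p53 targets 1 of 14, Eda2r (-0.76), was past 1.5-fold. Ezh2, the methyltransferase of polycomb complex 2, was at 0.61 and the muscle-linked Ezh1 at -0.25. Krt19 was higher, at 8.90 in the control line and 9.76 in the shRp58 line (0.86), and so was the nuclear envelope gene Lbr (0.61).

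The highest genes of the comparison were neurofilaments. Nefm was read at 8.10 (control) and 9.66 (shRp58), 2.95-fold higher, and Nefl at 10.80 for the control and 12.19 for the hairpin, 2.63-fold higher. A further 3 of 11 kept neuronal markers were past 1.5-fold: the microtubule regulator Stmn2 (10.50 in the control line and 11.38 in the shRp58 line, 0.88), the growth cone protein Gap43 (9.20 (control) and 10.04 (shRp58), 0.85) and the tubulin Tubb3 (8.33 for the control and 9.08 for the hairpin, 0.75). The list as a whole ran from 6.08 to 10.80 with the control vector and from 6.21 to 12.19 with shRp58. Of the 11 kept neuronal markers 5 were below 7.95 on both arrays, among them Rbfox3 (7.01 and 7.28), Dcx (7.26 and 7.26) and Syt1 (7.45 and 7.66), and Snap25, Elavl4 and Nefh were below it on all 6 arrays. Dcx and Syt1 lay on both arrays above 7.15, the median of the 2 arrays themselves, and with that as the filter the list's median was 0.51 in place of 0.27. In parental cells Nefm was at 11.57 and Nefl at 13.14 on day 0, and by day 2 they were at 8.29 and 9.49.

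Markers of other cell types differed by list. Of 8 kept smooth muscle markers 7 lay below 0, around a median of -0.33. The actin-binding Tagln was past 1.5-fold at 9.64 in the control line and 8.80 in the shRp58 line (-0.84), and smooth muscle actin (Acta2) was at -0.46. Fibroblast markers had a median of -0.12 over 7, with Pdgfrb at -0.68. All 6 kept leukocyte markers lay above 0, around a median of 0.18. Among them the granzyme gene Gzmd was at 5.17 (control) and 6.19 (shRp58), a difference of 1.02 that makes it 1 of the 7 genes 2-fold higher, on dim values. Of 7 adipocyte markers 2 were at least 1.5-fold lower, around a list median of -0.20. The median of 4 osteoblast and chondrocyte markers was 0.10, and 7 of 8 endothelial markers were below 7.95 on every array. The part of other cells in the muscle and cell cycle differences was not tested.

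Of the genes past 1.5-fold, 180 of 298 lower genes (60.4%) and 77 of 189 higher ones (40.7%) were in none of the lists. The lists hold only 885 of the 13242 kept genes, so the share outside them is larger still among all kept genes. Ablim3, which binds actin, was the lowest of these at 8.31 for the control and 6.42 for the hairpin (-1.89), with the value of shRp58 dim. Dhrs7c, a sarcoplasmic reticulum protein, was at 8.55 in the control line and 6.86 in the shRp58 line (-1.69), and Tceal7 at 8.35 (control) and 6.78 (shRp58) (-1.57). For both genes the value of shRp58 was dim. The following were chosen after their values were seen. Hjv (hemojuvelin), a BMP co-receptor of muscle and liver, was at -1.22, Prkag3, the AMP kinase subunit of fast muscle, at -1.20, and the muscle RNA-binding protein Rbm24 at -1.10. Porcn, which adds the lipid to Wnt proteins, was at 10.16 for the control and 8.88 for the hairpin (-1.28), Apobec2 at -1.11, the actin regulator Enah at -1.13 and the growth arrest gene Gadd45a at 12.03 in the control line and 11.08 in the shRp58 line (-0.95). On the high side the urea transporter Slc14a1 was at 7.32 (control) and 8.50 (shRp58) (1.19), with its control value dim. Chromatin proteins Hmgb2, Hmga2 and Atad2 were at 0.77, 0.75 and 0.82, and the growth-linked Tcf19 at 0.91.

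Near the 2-fold threshold there was no gap. On the high side Kif11 (1.01), Shcbp1 (1.01) and Tk1 (1.03) lay just inside, and Cdca5 (0.999), Cdc6 (0.998) and Melk (0.99) just outside. On the low side the nearest inside were Ldb3 (-1.01), Chrng (-1.02) and the lipid transfer gene Mttp (-1.03), and the nearest outside were Oasl2 (-0.999), the hexose transporter Slc2a6 (-0.98) and Gprc5c (-0.98). Where a gene had further probe sets they mostly went the same way. The 20 genes 2-fold lower that had any held 31 further probe sets, of which 29 had the same sign and 26 were past 1.5-fold. For the 52 genes 1.5-fold higher with further probe sets, 72 of 72 had the same sign and 45 were past 1.5-fold. Probe sets on 1 array read the same RNA and are not replicates.

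The parental time course shares no array with the hairpin comparison and gives a second reading of the same genes. From day 0 to day 2 of differentiation 885 kept genes (6.68%) were past 1.5-fold on the high side and 1105 (8.34%) on the low side. On the low side of the hairpin comparison, 249 of 298 genes were among those 885, which is 83.6% of the hairpin list and 28.1% of the day 2 list. On its high side, 176 of 189 were among the 1105 lower at day 2, or 93.1% and 15.9%. These lists hold genes kept only because a parental array read them at 7.95 or more, 46 on the low side and 19 on the high side. Among the 9718 genes at 7.95 or more in a stable line, a limit added after seeing the data, the overlaps were 212 of 252 (84.1%, against 6.52% of those genes higher at day 2) and 163 of 170 (95.9%, against 10.1% lower at day 2). Genes that went the same way in both numbered 2 on the low side, the chemokine Cxcl5 (-0.80 with shRp58, -0.73 at day 2) and Plac8 (-0.62 and -0.84), and 0 on the high side.

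A smaller group past 1.5-fold with shRp58 stayed within 1.5-fold at both day 2 and day 4 in the parental cells: 21 of 298 lower genes (7.05%) and 9 of 189 higher ones (4.76%), where 74.9% of all kept genes stayed within that range. Of these, 19 and 4 reached 7.95 in a stable line. Ptn led them, at 7.63 in GM and 9.60, 9.47 and 9.76 on days 0, 2 and 4. The claudin-like Tmem47 was at 9.70 for the control and 8.63 for the hairpin (-1.07), against -0.29 from day 0 to day 2. Others were the collagen genes Col6a1 and Col6a2, the adhesion molecule Ncam1 (10.90 in the control line and 10.21 in the shRp58 line, -0.69, against 0.16), the PDGF receptor Pdgfrb, the guidance cues Sema3c (-0.69) and Slit2 (-0.70) and the myotonic dystrophy kinase Dmpk (11.30 (control) and 10.53 (shRp58), -0.77, against 0.18). The range is counted from day 0, so a change between GM and day 0 is not part of it. From GM to day 0 parental cells rose past 1.5-fold for Ptn (1.97), Slit2 (1.64), Col6a1 (1.49), Col6a2 (1.41), Sema3c (1.21) and Pdgfrb (0.86). Tmem47 (0.48), Dmpk (0.31) and Ncam1 (0.13) stayed within 1.5-fold over that step. Fos, H3f3b (0.92) and the RNA-binding protein gene Raly (0.87, or 0.41 as a median of its probe sets) were the main ones on the high side. H3f3b reached 7.95 only on the shRp58 array (8.09) and was kept through it alone. It was dim in the control line (7.17) and on every parental array, so its level parental course rests on dim values.

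**Figure D4:**
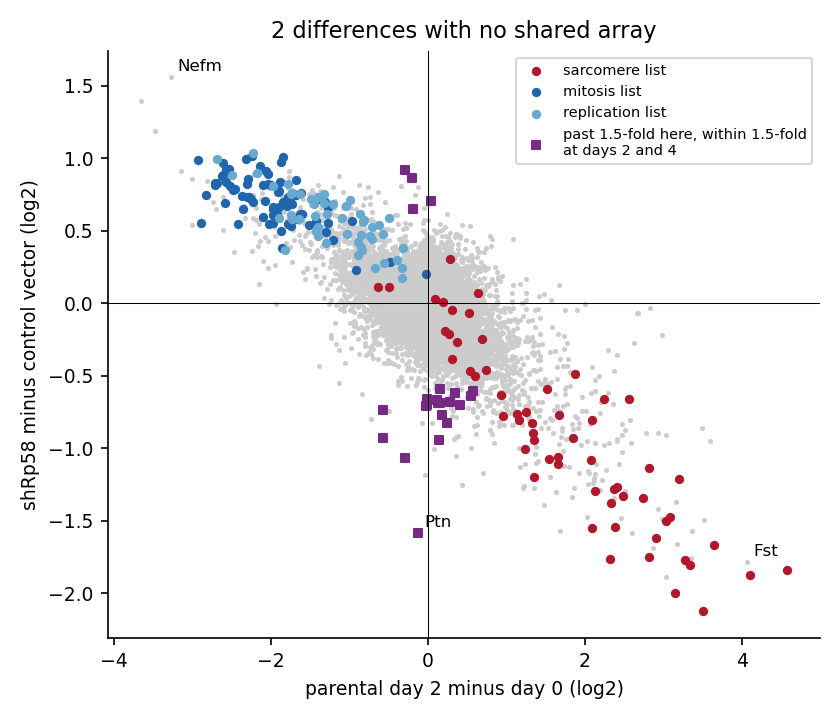
Each kept gene is placed by its parental day 2 minus day 0 difference (x axis, log2) and its shRp58 minus control vector difference (y axis, log2), which share no array. Sarcomere genes (red) lie at lower right and mitosis and replication genes (blue) at upper left, and purple squares, led by Ptn at -1.59, are the 23 genes past 1.5-fold on the y axis, bright enough in a stable line, and within 1.5-fold at days 2 and 4.

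Set against untransfected cells of the same day, the control line lay further away for sarcomere and cell cycle genes, both lines lay apart for several other lists, and the shRp58 line lay further away for some. The arrays of the 2 transfected lines have medians of 7.15 over all probe sets and the parental arrays of 8.26 to 8.27, so the deposited values form 2 scales, and levels are compared across them relative to the median of all kept genes, a shift of -1.02 for either line. On that footing the 59 sarcomere genes were higher than parental day 0 by a median of 1.25 with the control vector (56 of 59 above 0) and by 0.31 with shRp58 (51 of 59). After quantile normalization of the 6 arrays together, an alternative added after seeing the data, these medians were 0.98 and 0.29. For the 78 mitosis genes they were -0.82 with the control vector (0 above 0) and -0.05 with shRp58 (29 above 0). Replication genes gave -0.62 and -0.09. Myog was 1.04 above parental day 0 in the control line and 0.32 in the shRp58 line, Mef2c 1.04 and -0.12, Myh3 1.84 and 0.54, and Zbtb18 0.83 and 0.31. Cdk1 was at -0.77 and 0.07, and Mki67 at -0.87 and -0.04. For the sarcomere, mitosis and replication lists the shRp58 line lay nearer to parental day 0 cells than the control line did. This did not hold for the whole list of 25 myogenic regulators, which includes Myog and Mef2c. Their medians were 0.09 with the control vector and -0.11 with shRp58. Nor did it hold for the 14 Id and helix-loop-helix genes (0.01 and -0.19) or the 41 BTB zinc finger genes (-0.08 and -0.12). Both lines lay above parental day 0 for stress genes of amino acid supply and the endoplasmic reticulum (0.78 with the control vector, 0.64 with shRp58) and for oxidative phosphorylation (0.33 and 0.30). Ribosomal protein genes stood at 0.41 and 0.43 on the same footing. The shRp58 line was also the further away for the medians of 7 fibroblast markers (-0.28 and -0.72) and 18 Notch genes (-0.10 and -0.24). In each of these lists 4 genes were below 7.95 on both stable-line arrays. The median shRp58 minus control vector difference was only -0.12 for the fibroblast markers and -0.10 for the Notch genes. Transfection, selection, time in culture and the different array scale all separate these lines from the parental cells and cannot be told apart here.

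**Figure D5:**
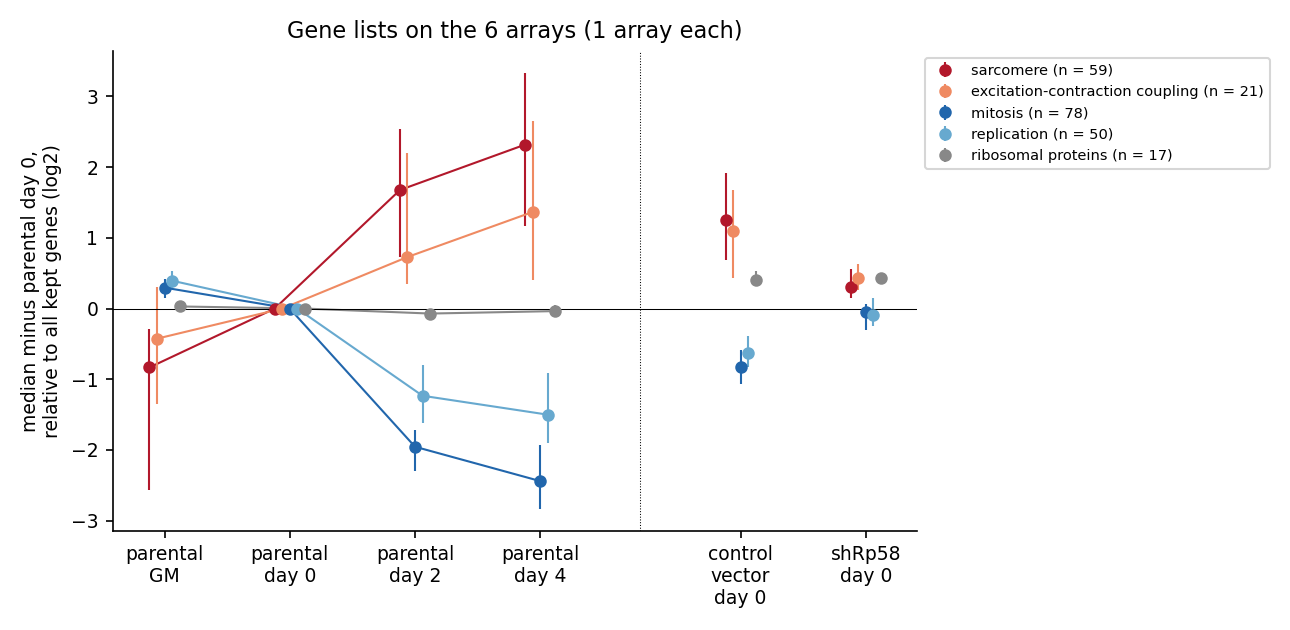
Points are medians of 5 gene lists on each of the 6 arrays (x axis), as the difference from parental day 0 relative to all kept genes (y axis, log2), and bars span the quartiles of the genes and are no replicate error. Sarcomere genes (red) stand at 1.25 in the control line and 0.31 in the shRp58 line, mitosis genes (dark blue) at -0.82 and -0.05, and ribosomal protein genes (grey) at 0.41 and 0.43.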

How the data were processed

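Affymetrix mouse whole-genome arrays took 10 ug of cRNA each, and the deposited log2 values come from RMA, run by the authors, per the labels' design text. Whether RMA was run on the 6 arrays at once, and with what software, is not given in the sources used here. Of 45101 probe sets, 34958 had 1 gene in the platform annotation, 932 several and 9211 none. Entrez IDs matched RefSeq (GRCm38.p6) for 34754. A gene with several was read from its brightest by mean over 6 arrays. The filter, 7.95, is the median of all values. No detection calls were used. Groups came from sample titles. Differences, counts at 2-fold and 1.5-fold, and list medians were computed in Python 3.11.15 with pandas 2.3.3, and the counting was tested on simulated data. Each group has 1 array, so no p-value is given and precision is limited by the array number. Genes named are Zbtb18, members of 40 gene lists (1026 entries, 961 matched, 885 kept), the 30 largest and 30 smallest differences among genes at 7.95 or more in a stable line, and the 3 genes just inside and just outside 2-fold on each side. The genes beside the threshold were also taken from those at 7.95 or more in a stable line. Other genes named were chosen after their values were seen. The members and lists were chosen with earlier results of these data known. Promoter windows of 300 bases came from RefSeq and were searched on both strands.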

Additional observations from a re-analysis of the deposited data

Results flagged for a closer look

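Probe sets with no single gene in the annotation are outside the comparison of genes. Of 4329 such probe sets that reached 7.95 on at least 1 array, 5 were at least 2-fold higher with shRp58 and 12 at least 2-fold lower. The highest, for which the annotation lists no gene, went from 7.72 with the control vector to 9.66 with shRp58, a difference of 1.94, above the highest of the kept genes, Nefm. Parental cells gave 8.26 in growth medium and 9.01, 9.14 and 8.21 on days 0, 2 and 4. No replicate bears on these values.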

How the results depend on the processing

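Of 7 alternatives (no filter, a filter of 7.15 on the 2 stable-line arrays, centring, quantile and loess normalization of the 2 arrays, the median of a gene's probe sets, and the probe set brightest in the stable lines), none moved a count by more than 1.5 times. Counts ran from 6 to 10 (2-fold higher), 68 to 84 (2-fold lower), 146 to 217 (1.5-fold higher) and 239 to 304 (1.5-fold lower). Zbtb18 ran from -0.53 to -0.49. Of 280 list medians under these alternatives, 279 moved by less than 0.17, the robust standard deviation, and 0 reversed. The exception was neuronal markers, at 0.51 in place of 0.27 with the stable-line filter. Of 420 values of the 60 genes with the largest and smallest differences, 17 moved further, each under the median of probe sets, and 0 reversed. Quantile normalization of all 6 arrays, added after seeing the data, moved the sarcomere median of control vector minus parental day 0 from 1.25 to 0.98, and the cause was not tested. Limiting the overlap with parental day 2 to genes at 7.95 or more in a stable line, also added later, left 212 of 249 lower and 163 of 176 higher genes. No paired analysis was possible because each group has 1 array. Probe sets below 7.95 limit the sizes of differences: 9 of the 82 genes 2-fold lower and 1 of the 7 higher were below it on both arrays.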

Other observations

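Among the imprinted genes, in a list not described above, Ndn (necdin, which binds E2F and p53 and is made in neurons and muscle) read 7.03 with the control vector and 7.84 with shRp58, the highest difference of 11 kept genes at 0.81 and dim on both arrays. The other 10 lay within 1.5-fold, from Peg3 at -0.21 to Rian at 0.39. Quiescent satellite cell markers had a median of -0.11 over 8 genes, with Spry1 and Cxcr4 lowest at -0.46 and -0.45.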
